A study of Mus musculus with 4 samples.

Results

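The cells described here are those that the authors' annotation names Th1-like, taken as every cell carrying that cluster name in the deposited table. They were 1275 of 17674 cells, 673 from the Cyp51-KO group and 602 from the sg-Ctrl group. Tumors were grown from CT26, a mouse colorectal carcinoma line, injected into the colon of BALB/c mice (male and 8 to 10 weeks old in the methods for this model) and taken on day 26. For the Cyp51-KO group the injected line carried Cas9 and a guide against *Cyp51*, which encodes lanosterol 14-alpha demethylase of cholesterol synthesis, and for the sg-Ctrl group a control guide. Both lines had been sorted on TagBFP from virus-treated cells, and the T cells of both groups came from the host and were not edited. The Cyp51-KO group pooled 9 tumors and the sg-Ctrl group 12, whose cells were sorted and mixed as 50% bulk CD45+ cells, 40% CD3+ T cells and 10% tumor cells, and sequenced with a 5' droplet kit, so that every share below describes this mix. The labels list 2 samples per group, but a cell is tied only to its group. No barcode was repeated within a group (0 repeats), and 98 barcodes occurred in both groups, 17 of them on a Th1-like cell of 1 group and never on Th1-like cells of both. Each group was therefore treated as 1 set of pooled cells, no test was made, and the exact 95% intervals cover counting error only, not the spread between tumors or libraries.

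Th1 cells are CD4+ helper T cells set by the transcription factor T-bet, the product of *Tbx21*, and known for secreting interferon gamma, which activates macrophages and supports CD8+ T cells in tumors. Regulatory T (Treg) cells, set by *Foxp3*, restrain such responses, and Th17 cells secrete IL-17A. The name Th1-like could not be checked against *Cd4*, *Cd3e* and *Tbx21*, because the table used here gives totals per cell and no value per gene. The leading genes that the study lists for the cluster hold none of those markers and not *Ifng*. The 10 genes are *Tcf7*, which heads the list, *Bach2*, *Arhgap15*, *Lef1*, *Emb*, *Klf2*, *Cblb*, *Gphn*, *Satb1* and *Camk1d*. *Tcf7* and *Lef1* encode transcription factors of naive and memory T cells, *Bach2* a repressor of effector programs, *Klf2* a factor that keeps T cells recirculating, *Satb1* a chromatin organizer of developing T cells, and *Cblb* a ubiquitin ligase that restrains T cell activation. A list of leading genes shows only what sets a cluster apart from the others, so the absence of *Cd4* or *Cd3e* from it says nothing about their level. Th1-like is used below as the authors' cluster name and not as an identification.

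The first question was whether the cluster took a different part of the lymphocytes when the tumor cells lacked *Cyp51*. By overlap of the intervals it did not differ detectably at this number of cells, with every cell that the authors kept. Th1-like cells were 11.3% of lymphocytes in the Cyp51-KO group (673 of 5957 cells, interval 10.5 to 12.1%) and 11.6% in the sg-Ctrl group (602 of 5193 cells, 10.7 to 12.5%). In both groups the cluster was the 4th largest of the 13 lymphocyte clusters. The log2 ratio of Cyp51-KO over sg-Ctrl was -0.037, with a range of -0.25 to 0.18 when the lower bound of one share is set against the upper bound of the other. Intervals lay apart in 4 of the 13 clusters (30.8%), of which the Th1-like cluster was not one.

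The share was then set against the T cells most like it. Among all T cell clusters Th1-like cells were 15.0% in the Cyp51-KO group (14.0 to 16.1%) and 14.9% in the sg-Ctrl group (13.8 to 16.0%). Among the 3 clusters with a CD4 helper or regulatory name they were the majority, at 57.5% (54.6 to 60.4%) and 60.3% (57.2 to 63.4%). There were 2.21 Th1-like cells per Treg cell in the Cyp51-KO group and 2.30 in the sg-Ctrl group, and 3.51 and 4.49 per cell of the Th17 cluster. The share of Th1-like cells among Th1-like and Th17 cells together was 77.8% (74.9 to 80.5%) and 81.8% (78.8 to 84.5%). Intervals overlapped for each of these denominators. The Th17 cluster is a reference by its name only, as its leading genes in the study's list include the gamma-delta T cell receptor genes *Trdv4* and *Tcrg-V6*. Set against the 4 CD8 clusters, Th1-like cells were 19.5% of the sum in the Cyp51-KO group (18.2 to 20.9%) and 18.4% in the sg-Ctrl group (17.1 to 19.8%), again with overlapping intervals. The intervals lay apart when all cells were the denominator, at 6.42% against 8.37%. Tumor cells had been mixed in at 10%, but malignant cells were 2428 of 10484 Cyp51-KO cells and 729 of 7190 sg-Ctrl cells. Over immune cells alone the Th1-like shares were 8.52% (7.91 to 9.15%) and 9.42% (8.71 to 10.2%), with overlapping intervals.

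**Figure D1:**
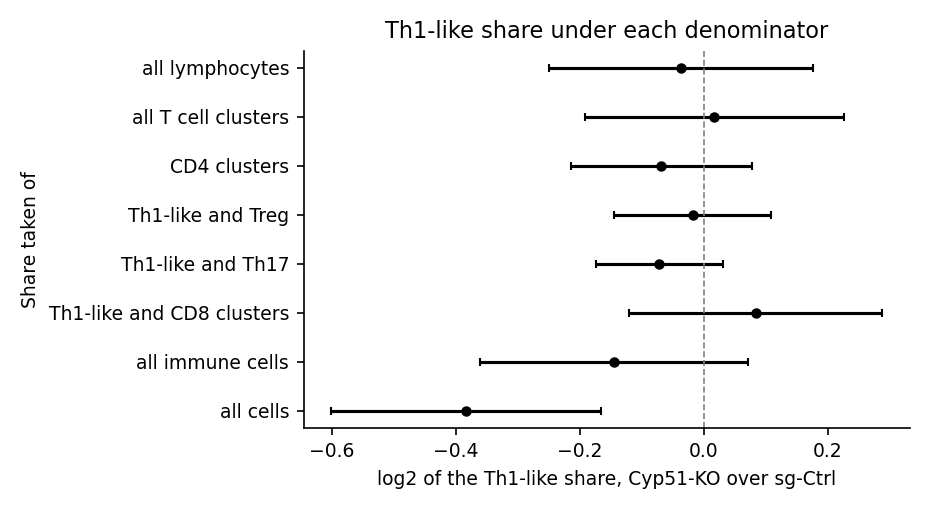
Th1-like share in the Cyp51-KO group over that in the sg-Ctrl group (log2 ratio) for 8 denominators, where each bar spans the range set by the exact 95% intervals. The ratio lies between -0.14 and 0.084 for the 7 denominators without epithelial cells and at -0.38 over all cells.

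Where the numbers of cells were close, the RNA recovered from each Th1-like cell was not. Th1-like cells had a median of 1860 unique molecular identifiers (UMIs, the counted RNA molecules) in the Cyp51-KO group (interval 1744 to 1955) and 4214.5 in the sg-Ctrl group (3943 to 4351), 2.27-fold more in sg-Ctrl. The log2 ratio was -1.18 (-1.32 to -1.01). From the 25th to the 75th percentile, cells lay between 1139 and 2797 UMIs in the Cyp51-KO group and between 2929.25 and 5506.75 in the sg-Ctrl group, and these spans did not overlap. The lowest cells were at 501 and 518 UMIs, just above the minimum of 500 that the authors set, and the highest were at 41449 and 26677. Fewer UMIs were the rule in the Cyp51-KO group. The median was lower with intervals apart in 16 of 20 clusters (80%), and the value of the Th1-like cluster is to be read against that. Depth per cell and the knockout cannot be told apart with 1 set of cells per group.

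The reference clusters showed the same direction. Treg cells had a median of 2686 UMIs in the Cyp51-KO group (2364 to 2947) and 4947 in the sg-Ctrl group (4447 to 5387), a log2 ratio of -0.88 (-1.19 to -0.59). The Th17 cluster had 2519 (2281 to 2683) and 5453.5 (4933 to 6304), a log2 ratio of -1.11 (-1.47 to -0.88). The range of the Th1-like ratio overlaps both of these ranges, so that its ratio is the lowest of the 20 clusters in order but not apart from those of its neighbors. In level, however, the Th1-like cluster had the fewest UMIs of the 8 T cell clusters in both groups. The cluster with the next fewest was Th17 in the Cyp51-KO group and Treg in the sg-Ctrl group, and the interval of the Th1-like median lay below theirs in each case. Outside the T cell clusters, B cells had 2062 UMIs (1803 to 2260) in Cyp51-KO and 3924 (3772 to 4381) in sg-Ctrl, with intervals that overlapped the Th1-like ones.

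**Figure D2:**
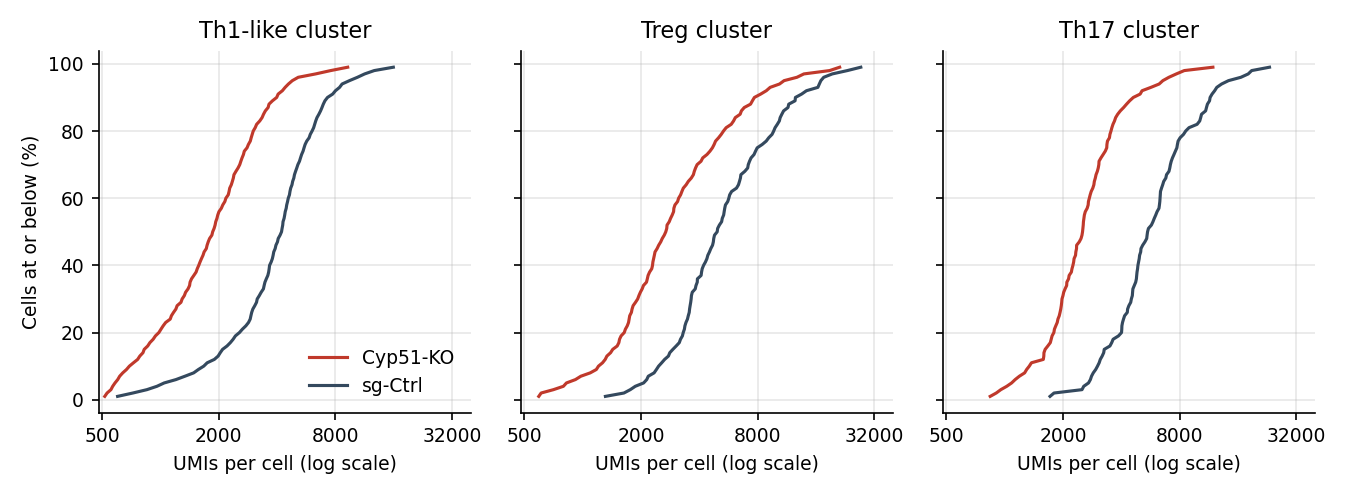
Cumulative percentage of cells (vertical axis) by UMIs per cell (log scale) in the Th1-like, Treg and Th17 clusters, from the 1st to the 99th percentile, for Cyp51-KO and sg-Ctrl tumors. In each cluster the Cyp51-KO curve lies to the left, and the Th1-like curves begin farthest left, where under 1000 UMIs lie 20.8% of Th1-like cells in the Cyp51-KO group and 4.49% in the other.

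The low end of the UMI range held a large part of the cluster. In the Cyp51-KO group 140 of 673 Th1-like cells had under 1000 UMIs (20.8%, 17.8 to 24.1%), and in the sg-Ctrl group 27 of 602 did (4.49%, 2.98 to 6.46%). Over the other 7 T cell clusters these cells were 2.24% (1.79 to 2.76%) and 0.348% (0.180 to 0.607%). Under 2000 UMIs were 55.9% of Th1-like cells in the Cyp51-KO group (52.0 to 59.7%) and 13.1% in the sg-Ctrl group (10.5 to 16.1%), against 13.4% and 1.80% in the other T cell clusters. The reference clusters lay between, with 32.1% of Treg cells and 31.3% of the Th17 cluster under 2000 UMIs in the Cyp51-KO group and 4.96% and 2.99% in the sg-Ctrl group. Read the other way, Th1-like cells were the majority of T cells under 1000 UMIs, but under 2000 UMIs not in the Cyp51-KO group. Of all T cells under 1000 UMIs, Th1-like cells made up 140 of 225 in the Cyp51-KO group (62.2%, 55.5 to 68.6%) and 27 of 39 in the sg-Ctrl group (69.2%, 52.4 to 83.0%). Under 2000 UMIs they were 376 of 884 (42.5%, 39.2 to 45.9%) and 79 of 141 (56.0%, 47.4 to 64.4%). Of all lymphocyte UMIs, 4.18% in the Cyp51-KO group and 5.93% in the sg-Ctrl group were in Th1-like cells, below their share of the cells.

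Mitochondrial transcripts set the cluster apart from the other T cells as well, and did so in both groups. A high mitochondrial percentage is commonly used to mark stressed or damaged cells, and the authors had removed cells above 5%. Per their methods, this percentage was also regressed out in the normalization before clustering. The median Th1-like cell had 1.23% mitochondrial UMIs in the Cyp51-KO group (1.17 to 1.29%) and 1.46% in the sg-Ctrl group (1.41 to 1.53%). These were the highest medians of the 8 T cell clusters in both groups, where Treg cells had 0.778% and 0.997% and the Th17 cluster 0.764% and 0.976%. They were not the highest of the lymphocytes, as B cells had 1.45% (Cyp51-KO) and 1.68% (sg-Ctrl). Th1-like cells with over 2.5% were 14.6% in the Cyp51-KO group (98 of 673 cells, 12.0 to 17.5%) and 13.8% in the sg-Ctrl group (83 of 602 cells, 11.1 to 16.8%). The other T cell clusters together had 0.579% (22 of 3799 cells, 0.363 to 0.875%) and 0.696% (24 of 3446 cells, 0.447 to 1.03%). Th1-like cells were thus 81.7% of all T cells above 2.5% in the Cyp51-KO group (73.6 to 88.1%) and 77.6% in the sg-Ctrl group (68.5 to 85.1%). Above 4% they were 24 of 25 T cells in Cyp51-KO and 23 of 24 in the sg-Ctrl group. The part of these cells in the leading genes of the cluster was not tested.

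**Figure D3:**
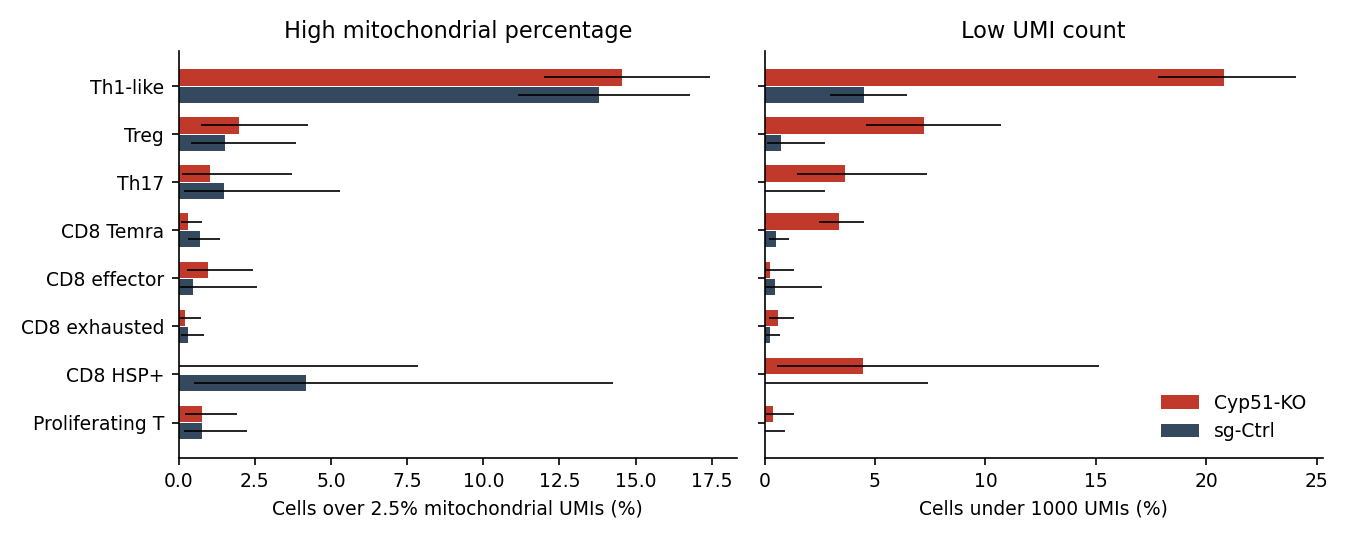
Percentage of the cells of each of the 8 T cell clusters with over 2.5% mitochondrial UMIs (left) and with under 1000 UMIs (right) in both groups, with lines for the exact 95% intervals. Within each group the Th1-like bar is the longest in both panels, at 14.6% (Cyp51-KO) and 13.8% (sg-Ctrl) on the left and at 20.8% and 4.49% on the right, where the Treg bar of the Cyp51-KO group reaches 7.21%.

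High mitochondrial percentage and few UMIs were partly different cells, although cells with few UMIs more often had a high mitochondrial percentage. Of Cyp51-KO Th1-like cells under 1000 UMIs, 29.3% (21.9 to 37.6%) had over 2.5%, against 10.7% (8.20 to 13.6%) of those with at least 1000. For sg-Ctrl the values were 40.7% (11 of 27 cells, 22.4 to 61.2%) and 12.5% (9.93 to 15.5%). In the Cyp51-KO group 99 Th1-like cells (14.7%) had under 1000 UMIs only, 57 (8.47%) had over 2.5% mitochondrial UMIs only, and 41 (6.09%) had both. In the sg-Ctrl group these were 16 (2.66%), 72 (12.0%) and 11 (1.83%). The remaining 476 Cyp51-KO cells (70.7%, 67.1 to 74.1%) and 503 sg-Ctrl cells (83.6%, 80.3 to 86.4%) passed both limits. A filter at these limits took 29.3% of the Th1-like cells of the Cyp51-KO group and 16.4% of those of the sg-Ctrl group, but only 2.82% and 1.37% of the other lymphocytes. After it the cluster was 8.48% of lymphocytes in the Cyp51-KO group (7.77 to 9.24%) and 10.0% in the sg-Ctrl group (9.18 to 10.9%), with intervals that just overlapped. The cells that passed still had the lowest median UMIs of the T cell clusters, at 2258 (2086 to 2350) and 4413 (4272 to 4567), and the highest median mitochondrial percentage, at 1.12% (1.05 to 1.17%) and 1.37% (1.31 to 1.42%). Their UMI intervals, however, then overlapped those of the next cluster, Th17 in the Cyp51-KO group (2346 to 2704) and Treg in the sg-Ctrl group (4525 to 5412).

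The share of the cluster among lymphocytes fell steeply with UMIs in both groups. Lymphocytes of both groups were divided into 10 bins holding equal numbers of cells over both groups. In the bin of the fewest UMIs, 501 to 1844, Th1-like cells were 34.3% of the lymphocytes of the Cyp51-KO group (332 of 969 cells, 31.3 to 37.3%) and 47.3% of those of the sg-Ctrl group (69 of 146 cells, 38.9 to 55.7%). From 4425 to 5499 UMIs they were 3.82% (2.32 to 5.91%) and 17.6% (14.7 to 20.9%). In the bin of the most UMIs, from 15478, they were 0.446% (2 of 448 cells) and 1.05% (7 of 667 cells). The Cyp51-KO share was the lower in 10 of 10 bins, with intervals apart in 6. Shares by bin were not computed for the other lymphocyte clusters, so whether this count is particular to the Th1-like cluster was not tested. The shares over all lymphocytes were close all the same, because the bin of the fewest UMIs held 969 Cyp51-KO lymphocytes against 146 of the sg-Ctrl group, and the bin of the most held 448 against 667. When the bins were cut within each group, so that a Cyp51-KO cell is compared with sg-Ctrl cells of the same rank and not of the same count, intervals lay apart in 1 bin, and the Cyp51-KO share was the lower in 7 bins and the higher in 3. The lowest of these bins held 42.2% Th1-like cells in the Cyp51-KO group and 34.9% in the sg-Ctrl group. The lower share in every bin of equal count therefore depends on comparing equal counts rather than equal ranks.

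**Figure D4:**
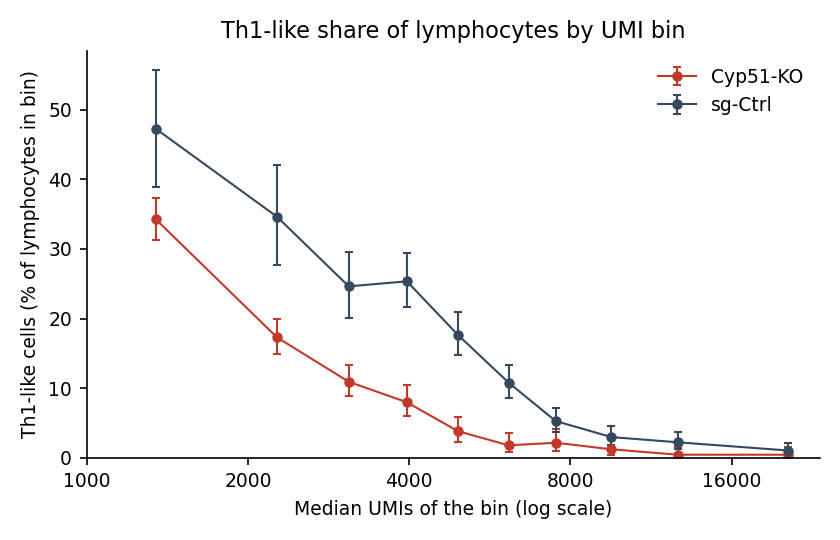
Th1-like cells as a percentage of the lymphocytes in 10 bins of UMIs per cell, drawn at each bin's median (log axis) with exact 95% intervals. The share falls from 34.3% to 0.446% in Cyp51-KO and from 47.3% to 1.05% in the sg-Ctrl group.

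The number of genes detected followed the UMIs. The median Th1-like cell had 882 genes in the Cyp51-KO group (847 to 915) and 1527.5 in the sg-Ctrl group (1490 to 1581), a log2 ratio of -0.79 (-0.90 to -0.70). The median was lower in the Cyp51-KO group with intervals apart in 16 of the 20 clusters (80%). Treg cells had 1261 and 1949.5 genes and the Th17 cluster 1170 and 2109, so that the Th1-like cluster again had the fewest of the T cell clusters in each group. The difference was smaller at like UMIs. Within bins of equal width on the log2 scale of UMIs, 5 of which held at least 20 Th1-like cells of both groups, the log2 ratio averaged -0.11 and ran from -0.23 to -0.025. From 2000 to below 2829 UMIs the median was 1019 genes in the Cyp51-KO group (133 cells, 979 to 1051) and 1084 in the sg-Ctrl group (59 cells, 1049 to 1137). From 2829 to below 4000 UMIs it was 1190.5 (98 cells, 1133 to 1257) and 1394 (143 cells, 1365 to 1422), the 1 bin with intervals apart, where the Cyp51-KO cells also had fewer UMIs (3250 against 3459). After the authors' SCTransform correction, which rescales each cell toward a common depth, the median was 1251 genes (1235 to 1266) in the Cyp51-KO group and 1567.5 (1528 to 1601) in the sg-Ctrl group, a log2 ratio of -0.33. This ratio was nearer 0 than those of Treg cells (-0.47) and the Th17 cluster (-0.66). The correction raised gene numbers mainly in cells of few UMIs. In Cyp51-KO Th1-like cells the median rose from 404 to 1316 at 500 to below 708 UMIs. It went from 1529 to 1542 at 4000 to below 5657 UMIs. Within the 5 bins the ratio of corrected genes averaged -0.13, with intervals apart in 3. Treg cells, for which 4 bins held enough cells, had similar averages. These were -0.11 for genes (intervals apart in 1 bin) and -0.099 for corrected genes (apart in 2). The corrected UMIs still differed, with medians of 5981 (5910 to 6036) and 6491 (6475 to 6513).

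The difference in mitochondrial percentage took different values at different UMIs, but the ranges of the log2 ratio overlapped over all 5 bins. The range was -1.71 to -0.18 from 1415 to below 2000 UMIs and -0.49 to 0.24 from 4000 to below 5657. Over all Th1-like cells the log2 ratio of the medians was -0.25 (-0.38 to -0.12), and the median was lower in the Cyp51-KO group with intervals apart in 17 of the 20 clusters (85%). Within the 5 bins the ratio was below 0 in each, from -1.02 to -0.11, and averaged -0.52 with every bin weighted alike. The bins below 2000 UMIs, with ratios of -0.82 and -1.02, held only 20 and 32 sg-Ctrl cells. In the bins from 2829 UMIs, which held 143 and 181 sg-Ctrl cells, the ratios were -0.23 and -0.11, nearer 0 than the ratio over all cells. From 1415 to below 2000 UMIs the median was 1.13% in the Cyp51-KO group (146 cells) and 2.30% in the sg-Ctrl group (32 cells), the 1 bin with intervals apart. From 4000 to below 5657 UMIs it was 1.30% (41 cells, 1.04 to 1.55%) and 1.40% (181 cells, 1.31 to 1.47%). Over the 5 bins, which start at 1000 UMIs, the sg-Ctrl medians lay between 1.40% and 2.35% and were highest at few UMIs. The Cyp51-KO medians lay between 1.12% and 1.34%. Bins below 1000 UMIs were left out, as they held only 12 and 15 sg-Ctrl cells. There the Cyp51-KO median was 1.59% from 500 to below 708 UMIs (70 cells, 1.25 to 2.12%). From 708 to below 1000 UMIs it was 1.31% (70 cells, 1.09 to 1.83%). The bins from 5657 to below 16000 UMIs were left out as well, with 13, 8 and 2 Cyp51-KO cells against 91, 30 and 13 sg-Ctrl cells. The contrast between groups therefore covers only cells from 1000 to below 5657 UMIs. In Treg cells, where 4 bins held enough cells, the ratio averaged -0.30, against -0.36 over all Treg cells.

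**Figure D5:**
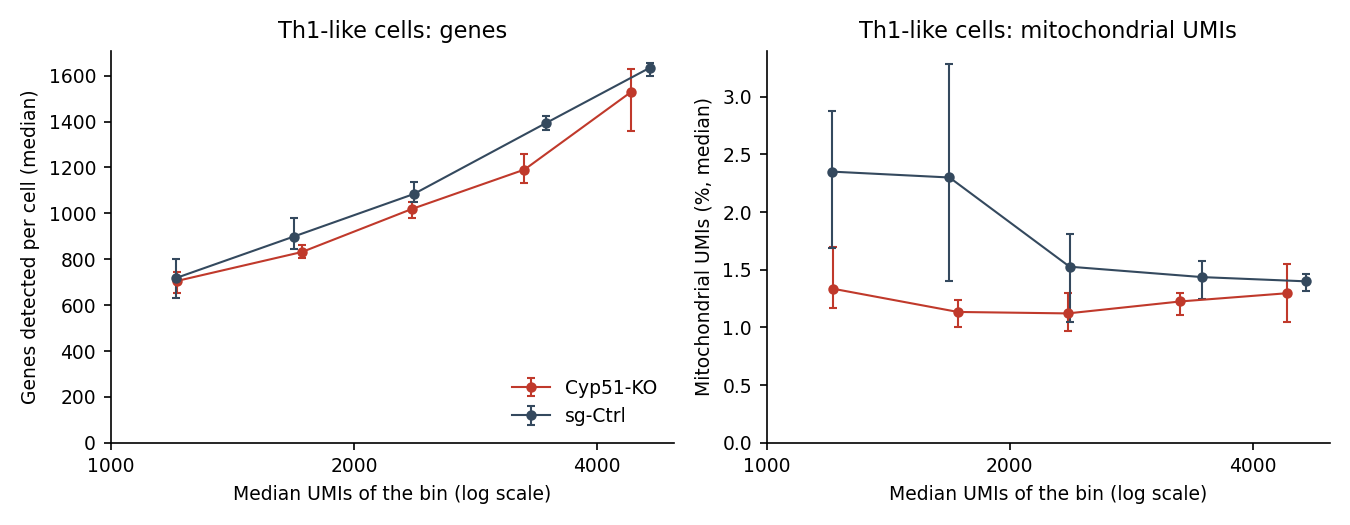
Median genes detected (left) and median percentage of mitochondrial UMIs (right) of Th1-like cells in 5 bins of UMIs of equal width on the log2 scale, drawn at the median of each bin and group, with exact 95% intervals of the median. The gene curves run close together, while the mitochondrial medians of the sg-Ctrl group fall from 2.35% to 1.40% and those of the Cyp51-KO group lie between 1.12% and 1.34%.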

How the data were processed

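Single cells of orthotopic CT26 tumors were profiled by 5' droplet RNA sequencing. Per the methods and the submitters' notes, the authors used Cell Ranger 7.0 with GRCm38, then filtered (200 to 7000 genes, 500 to 100000 UMIs, at most 5% mitochondrial UMIs), merged, normalized with SCTransform and clustered the cells with Seurat 4.2.0 in R 4.2.0. Before clustering, the authors took mitochondrial genes out of the variable genes and regressed out the mitochondrial percentage. The deposited table gives raw UMI counts per cell, genes detected, the mitochondrial percent and the totals after SCTransform, each computed by the authors. Doublet removal by the authors is not stated in the sources used, and here no caller was run. Without counts per gene, cells could not be thinned to a common depth, so bins of UMIs were used.

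The group of a cell was read from its group name, whose cell name prefix matches the sample titles. No test was made. Shares carry exact Clopper-Pearson intervals and medians exact intervals from the ordered cells, at 95%. Members and lists were chosen with earlier results of these data known. Alternatives were other denominators, a filter (at least 1000 UMIs, at most 2.5% mitochondrial UMIs), leaving out 5% of cells at either end of UMIs, means and other bins. The limits of 2000 UMIs and 4%, the half-log2 bins and the CD8 denominator were added with the data in view. No gene was named for a measured value. Python 3.11.15 was used with pandas 2.3.3, NumPy 2.4.6, SciPy 1.17.1 and Matplotlib 3.10.9.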

Additional observations from a re-analysis of the deposited data

How the results depend on the processing

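The precision is that of 673 and 602 cells and does not include differences between tumors or libraries. No paired analysis was possible because the table links each cell to a group alone, and for the same reason leaving out each library was not run. The log2 ratio of the share of lymphocytes (-0.037) lay between -0.38 and 0.084 under 7 alternatives. With the stricter filter it was -0.24 (-0.48 to 0.0095). Without the 5% of cells with the fewest UMIs it was -0.17 (-0.41 to 0.064). It was above 0 over T cell clusters (0.017) and against CD8 clusters (0.084), and moved beyond its range only over all cells (-0.38). The log2 ratio of the share of CD4 clusters (-0.069) lay between -0.16 and -0.018 under 5 alternatives. The ratio of median UMIs (-1.18) was -0.97 with the stricter filter and -0.98 without the 5% of cells with the fewest UMIs, and that of genes (-0.79) was -0.69 in both cases and -0.11 within bins of UMIs, which were chosen with the data in view, as was the CD8 denominator. The ratio of the mitochondrial percentage (-0.25) was -0.52 within bins, where the bins of 20 and 32 sg-Ctrl cells had the lowest values, and -0.15 as a ratio of means. The part of bins with intervals apart was 60% with 10 bins, 80% with 5 bins and 10% with bins cut within each group.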
